A study of Mus musculus with 16 samples.

Results

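Endothelial cells line every vessel of the heart and the inner face of its chambers, and the 10 genes described here are classic markers of their junctions and identity: Cldn5, Cdh5, Pecam1, Esam, Emcn, Robo4, Egfl7, Sox17, Sox18 and Erg. They were chosen by name. Every one of the 10 genes was found on the array among 22631 features tested, with 12 probes in all, because Erg and Sox17 had 2 probes each.

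Whole hearts of C57BL/6 mice were compared after social stress by an aggressor mouse, used as a model of posttraumatic stress disorder, with 1 heart on each of 16 one-colour arrays and 4 arrays in each of 4 groups. T1R1, T2R1 and T3R1 mice spent 1, 2 or 3 days in a mesh box in an aggressor's cage and then had 1 day of rest. Control mice sat in the same kind of box in a cage with no aggressor, and their labels name the schedule of 2 days with 1 day of rest, so no control was labelled for the schedule of T1R1 or of T3R1. All 4 groups shared the strain, the box and the tissue, no allele was altered in any of them, and no label gives an age. The general protocol in the labels speaks of 6 hours a day for 5 or 10 days, which differs from the group names, and the group names were followed.

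Endothelial cells hold to each other through tight junctions, in which claudin-5 (Cldn5) seals the gap between neighbouring cells, and adherens junctions, built on VE-cadherin (Cdh5). ETS factors such as Erg and SOXF factors such as Sox17 and Sox18 switch on and maintain many endothelial genes, VE-cadherin and claudin-5 among them. In the heart, where each muscle cell lies beside a capillary, these cells carry fuel and oxygen to the muscle and hold plasma proteins and leukocytes in the blood.

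Levels are log2 processed intensities minus the 75th percentile of the same array, so that a difference of 1 is a 2-fold difference relative to the other probes of the array. Levels of different probes are not compared, apart from the choice of bright marker genes and of 1 probe for each gene. A gene is said to have risen or fallen where the limma test, fitted over all 22631 features and adjusted by Benjamini-Hochberg, gave an adjusted p under 0.05. Nothing in the labels beyond individual hearts describes the replicates. The p values set group differences against the spread between hearts within groups, estimated over all 4 groups. They take in no spread between slides.

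The arrays lay on 2 slides, each scanned once: control and T3R1 on the first slide, and T1R1 and T2R1 on the second. T3R1 against control and T2R1 against T1R1 are therefore comparisons within a slide, and in the other 4 comparisons slide and exposure cannot be told apart. From 46.5% to 67.1% of the spots of an array were well above background. The library labelled control replicate 1 stood apart from the other controls. Its mean correlation with the T3R1 arrays was 0.988 and with the other controls 0.970, and its 75th percentile of intensity was 551, against 258 to 273 in control replicates 2 to 4. Comparisons with control are therefore given with and without it. From the cardiomyocyte and the endothelial list the 2 genes of highest level were picked, so that their high levels are no test. They were Myl2, the ventricular myosin light chain, and Nppa, the atrial natriuretic peptide, and Egfl7 and Cd34, a sialomucin. Each had a mean level in the controls above the 75th percentile of the arrays, whereas the endothelial gene Erg had -1.41. Tested probes of the 10 endothelial genes were all well above background on all 16 arrays.

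In T3R1 hearts all 10 endothelial genes had lower mean levels than in control hearts, by a median of 0.36 on the log2 scale (median -0.36, from -0.54 for Cldn5 to -0.08 for Pecam1), and none passed the test with all 4 controls. The lowest adjusted p was 0.0575, for Robo4. Across all features the median difference was -0.08, 38.4% of features were higher in T3R1, and 0.694% passed. At an unadjusted p under 0.05 by limma, 8 of the 10 genes were lower, against 13.3% of all features. In T2R1 hearts 3 genes fell, Sox18, Cldn5 and Egfl7, against 3.58% of all features that fell, and in T1R1 hearts none changed. Without control replicate 1, 4 genes fell in T1R1, 5 in T2R1 and 6 in T3R1, where 9.66%, 9.38% and 19.2% of all features fell. In whole-heart RNA, fewer endothelial cells and less of these transcripts per endothelial cell cannot be told apart.

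**Figure D1:**
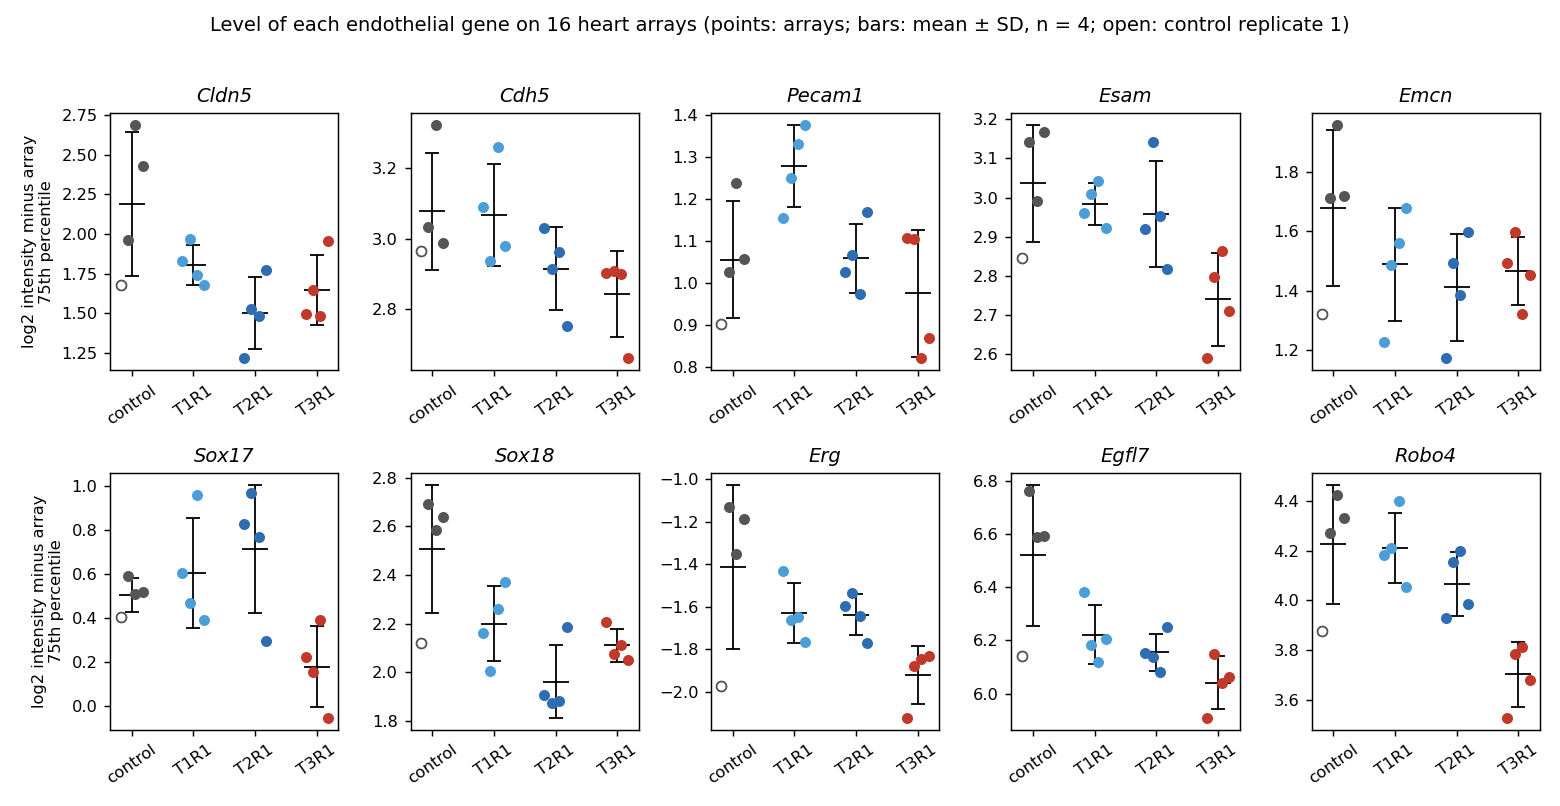
Level of each gene (y axis, log2 intensity minus the 75th percentile of the array) on each of the 16 arrays by group, with the mean and SD of 4 arrays; the open circle is control replicate 1. For Egfl7, Sox18 and Erg control replicates 2 to 4 lie above every T3R1 array, while control replicate 1 lies among them or, for Egfl7, beside the highest.

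The tight junction gene showed one of the widest spreads. Cldn5 (probe at chr16:18778046-18778105, plus strand, mm9) had levels of 1.68, 1.96, 2.69 and 2.43 in the controls, 1.83, 1.97, 1.74 and 1.67 in T1R1, 1.21, 1.53, 1.48 and 1.77 in T2R1, and 1.49, 1.65, 1.48 and 1.95 in T3R1. Control replicates 3 and 4 were higher than every exposed heart, control replicate 2 lay at the top of the exposed range and control replicate 1 within it. The control SD was 0.46, against 0.13 to 0.23 in the exposed groups. Cldn5 fell in T2R1 by 0.69 on the log2 scale (SE 0.19, limma adjusted p = 0.0224), a 1.61-fold difference. Leaving out control replicate 3 or 4 or T2R1 replicate 1 or 3 ended the call (adjusted p from 0.0523 to 0.0671), as did a fit of these 2 groups alone (adjusted p = 0.0769). The differences of -0.39 in T1R1 and -0.54 in T3R1 did not pass (adjusted p = 0.224 and 0.127). With control replicate 1 left out they were -0.56 and -0.72 and passed (adjusted p = 0.0429 and 0.0087).

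Cdh5 encodes VE-cadherin, the transmembrane adhesion protein of endothelial adherens junctions (probe at chr8:106668159-106668218, plus strand). Its levels were 2.96, 3.03, 3.32 and 2.99 in the controls, 3.09, 2.94, 3.26 and 2.98 in T1R1, 3.03, 2.92, 2.96 and 2.75 in T2R1, and 2.90, 2.91, 2.90 and 2.66 in T3R1. Every T3R1 heart lay below every control and every T1R1 heart, by a narrow margin at the edges of the groups. The difference between T3R1 and control was -0.23 (SE 0.11), and it did not pass with all controls (adjusted p = 0.207) or without control replicate 1 (-0.27, adjusted p = 0.0791).

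Pecam1 (CD31) is an immunoglobulin-family adhesion molecule at endothelial borders that platelets and leukocytes also carry. Its probe (chr11:106540864-106540923, minus strand) was spotted 2 times on each array. Levels were 0.90, 1.03, 1.24 and 1.06 in the controls, 1.15, 1.25, 1.33 and 1.38 in T1R1, 1.03, 1.07, 0.97 and 1.17 in T2R1, and 1.11, 1.10, 0.82 and 0.87 in T3R1. T1R1 hearts had the highest mean, 1.28 ± 0.10 (SD, n = 4), and all 4 lay above all 4 T3R1 hearts. Against T1R1, Pecam1 fell in T3R1 by 0.30 (SE 0.10, adjusted p = 0.0355), a comparison across slides. Scaling by the array median turned this difference to 0.10. The call was also lost without T1R1 replicate 3 or 4 or T3R1 replicate 3 or 4 (adjusted p from 0.0815 to 0.101), in a fit of these 2 groups alone (0.0711), with no filter on dim probes (0.0664) and with the replicate number as a block (0.0588). Against control the 3 differences were 0.22, 0.00 and -0.08 in T1R1, T2R1 and T3R1, with no call.

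Esam is another immunoglobulin-family protein, found at endothelial tight junctions (probe at chr9:37345795-37345854, plus strand). Levels were 2.85, 3.14, 2.99 and 3.17 in the controls, 2.96, 3.01, 3.04 and 2.92 in T1R1, 2.92, 3.14, 2.95 and 2.82 in T2R1, and 2.59, 2.80, 2.86 and 2.71 in T3R1. The T3R1 hearts were the lowest group, overlapping the controls only at control replicate 1. The difference from control was -0.30 (SE 0.10, adjusted p = 0.103), and leaving out control replicate 1 gave -0.36, which passed (0.0101).

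Emcn encodes endomucin, a mucin-like glycoprotein of capillary, venous and endocardial endothelium (probe at chr3:137086389-137086448, plus strand). Levels were 1.32, 1.71, 1.96 and 1.72 in the controls, 1.23, 1.49, 1.56 and 1.68 in T1R1, 1.17, 1.49, 1.38 and 1.60 in T2R1, and 1.49, 1.60, 1.32 and 1.45 in T3R1. Control replicates 2 to 4 lay above all 12 exposed hearts, and control replicate 1 was among the lowest. Differences from control were -0.19, -0.27 and -0.21 in T1R1, T2R1 and T3R1, with adjusted p between 0.206 and 0.413. The difference in T2R1, -0.38 when control replicate 1 was left out, then passed (adjusted p = 0.0391).

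Robo4, a receptor of the Roundabout family that is largely restricted to endothelium and steadies vessel barriers, had the smallest adjusted p of the 10 genes over the 4 groups (moderated F test, adjusted p = 0.0145). Its probe lies at chr9:37221547-37221606 (plus strand). Levels were 3.88, 4.27, 4.42 and 4.33 in the controls, 4.18, 4.21, 4.40 and 4.05 in T1R1, 3.93, 4.16, 4.20 and 3.99 in T2R1, and 3.53, 3.78, 3.81 and 3.68 in T3R1. The 4 T3R1 hearts lay below all 12 others, control replicate 1 being the nearest. Against control the difference was -0.52 (SE 0.12, adjusted p = 0.0575), against -0.64 (0.000857) once control replicate 1 was left out. With all 4 controls it passed under the normexp background correction, the authors' values, the filter on all 16 arrays and the robust prior, with adjusted p from 0.0293 to 0.0397, as did Egfl7.

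Against the other exposures Robo4 fell in T3R1 by 0.51 from T1R1 (SE 0.12, adjusted p = 0.00852) and by 0.37 from T2R1 (adjusted p = 0.0383). Scaling by the array median left -0.11 and -0.01, with no call. The call against T1R1 held whichever array was left out, and that against T2R1 was lost without T2R1 replicate 2, 3 or 4 or T3R1 replicate 1, 2 or 4 (adjusted p from 0.0514 to 0.117) and with no filter on dim probes (0.0679).

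Egfl7 encodes a secreted protein of the endothelial matrix that guides vessel tube formation (probe at chr2:26448142-26448201, plus strand). Levels were 6.14, 6.76, 6.59 and 6.59 in the controls, 6.38, 6.18, 6.12 and 6.21 in T1R1, 6.15, 6.14, 6.08 and 6.25 in T2R1, and 5.91, 6.15, 6.04 and 6.06 in T3R1. Control replicates 2 to 4 lay above all 12 exposed hearts, and control replicate 1 lay within their range. Egfl7 fell in T2R1 by 0.37 (SE 0.12, adjusted p = 0.0398). The call was lost without any one of control replicates 2, 3 and 4 or of the 4 T2R1 arrays (adjusted p from 0.0600 to 0.112), in a fit of the 2 groups alone (0.112), with no filter on dim probes (0.0743) and with the replicate number as a block (0.0526). In T3R1 the difference was -0.48 (SE 0.12, adjusted p = 0.0612). Once control replicate 1 was left out, Egfl7 fell in all 3 exposures, by 0.42, 0.49 and 0.61 (adjusted p = 0.00843, 0.00229 and 0.000396).

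Of the SOXF transcription factors, Sox18, which acts in vascular and lymphatic development, fell in T2R1. Its probe lies at chr2:181404789-181404848 (minus strand). Levels were 2.12, 2.69, 2.59 and 2.64 in the controls, 2.16, 2.01, 2.26 and 2.37 in T1R1, 1.91, 1.87, 1.88 and 2.18 in T2R1, and 2.21, 2.07, 2.11 and 2.05 in T3R1. Control replicates 2 to 4 were again above all 12 exposed hearts. The fall in T2R1 was 0.55 (SE 0.13, adjusted p = 0.00807), a 1.46-fold difference, and it passed whichever array was left out. The differences of -0.31 in T1R1 and -0.40 in T3R1 did not pass (adjusted p = 0.136 and 0.0990), and without control replicate 1 both did (-0.44 and -0.53, adjusted p = 0.0128 and 0.00207).

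Sox17, a factor of arterial and endocardial endothelium, ran a different course on its tested probe, with no call against control. Its tested probe (chr1:4481503-4481562, minus strand) gave 0.40, 0.59, 0.51 and 0.52 in the controls, 0.60, 0.47, 0.96 and 0.39 in T1R1, 0.83, 0.97, 0.77 and 0.30 in T2R1, and 0.22, 0.15, 0.39 and -0.05 in T3R1. On this probe the T3R1 hearts lay below all controls, whereas 3 of the 4 T2R1 hearts lay above them. The difference of 0.21 between T2R1 and control did not pass (limma adjusted p = 0.379). Sox17 fell in T3R1 against T2R1 by 0.54 (SE 0.15, adjusted p = 0.0172). Without T2R1 replicate 2 the adjusted p was 0.0531, and with scaling by the array median the difference was -0.18 (adjusted p = 0.43). A second probe (chr1:4481038-4481097) gave -0.40 (adjusted p = 0.0732) for the same comparison. On that probe T2R1 against control was 0.06 (adjusted p = 0.832), and T3R1 replicate 3 (-0.08) lay above control replicate 4 (-0.09). Against control in T3R1 the 2 probes gave -0.33 and -0.34, with no call.

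Erg, an ETS factor needed to keep vessels stable, had a dim probe at chr16:95581954-95582013 (minus strand). Levels were -1.97, -1.13, -1.35 and -1.19 in the controls, -1.43, -1.66, -1.65 and -1.77 in T1R1, -1.60, -1.54, -1.64 and -1.77 in T2R1, and -2.12, -1.88, -1.84 and -1.83 in T3R1. Control replicate 1 was lower than every heart except T3R1 replicate 1, and the other controls were the highest 3 of the 16. The difference in T3R1 was -0.51 (SE 0.15, adjusted p = 0.0930), against -0.70 (0.000518) once control replicate 1 was left out. A dimmer probe (chr16:95581811-95581870), well above background on 14 arrays, gave -0.92 (adjusted p = 0.157). The exon or untranslated region under each of the 12 probes was not assigned here.

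**Figure D2:**
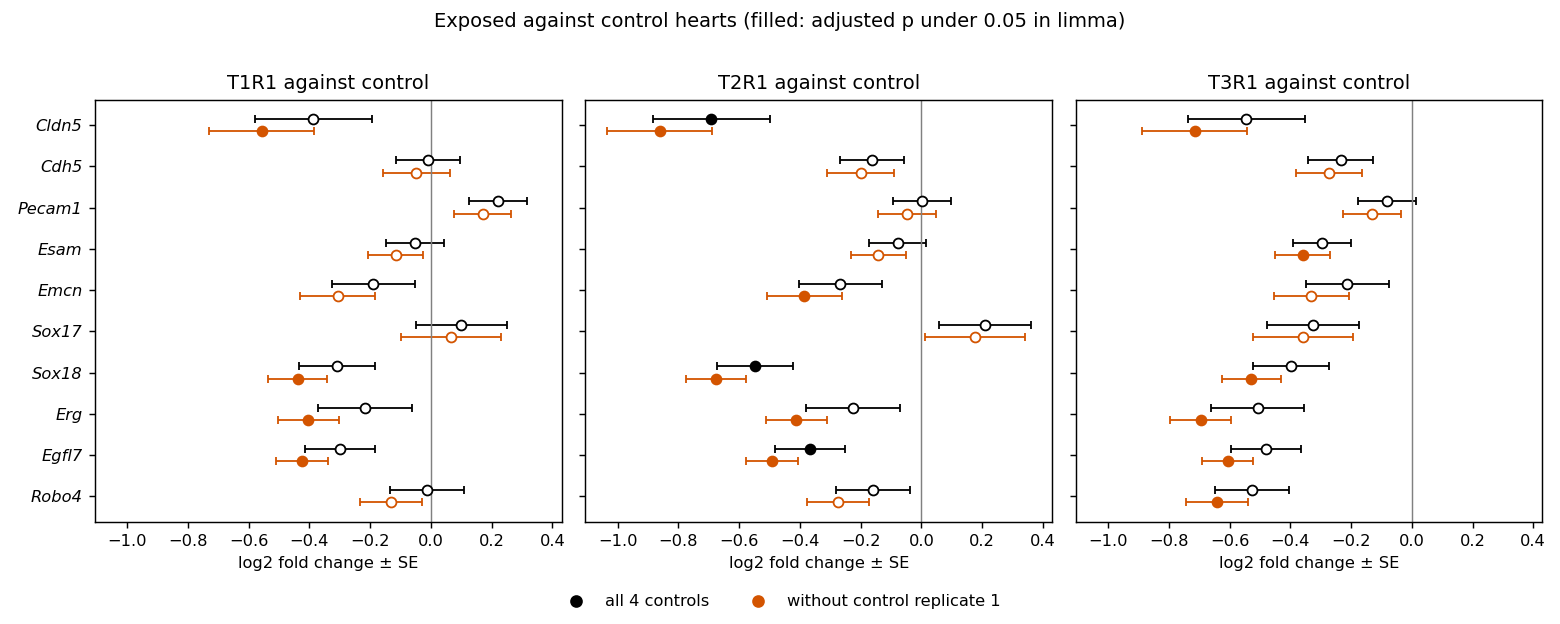
Difference of each exposed group from control for the 10 genes (x axis, log2 fold change with its SE), with all 4 controls in black and without control replicate 1 in orange; filled circles have a limma adjusted p under 0.05. With all controls 3 points are filled, all in T2R1, and without control replicate 1 there are 4, 5 and 6 filled points in T1R1, T2R1 and T3R1.

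Read over the 10 genes, the comparisons with control share the same 4 control hearts, so that a high or low control moves all 3. In T1R1 8 of the 10 genes were below 0 (median -0.12) and none passed in limma, against 9.85% of all features in either direction. At an unadjusted p under 0.05, 3 genes differed, Egfl7 and Sox18 lower and Pecam1 higher by 0.22, which scaling by the array median turned to -0.21. That share is near the 25.9% of all features that differed at this unadjusted threshold. In T2R1 8 of the 10 were below 0 (median -0.19), and 3 fell. In T3R1 the arrays of the groups did not overlap for Cdh5, Robo4 and Sox17, against 7.56% of all features. The second probe of Sox17 did overlap. Each of the 10 differences in T3R1 stayed below 0 under every scaling that was run.

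Without control replicate 1 the median was -0.22 in T1R1, -0.33 in T2R1 and -0.44 in T3R1. In T1R1 Cldn5, Egfl7, Sox18 and Erg fell, and in T2R1 Emcn fell with these 4. In T3R1 Cldn5, Egfl7, Esam, Sox18, Erg and Robo4 fell. There the tested probes of 9 of the 10 genes did not overlap between the groups, Pecam1 being the exception, against 40.7% of all features. The second probe of Sox17 overlapped, at T3R1 replicate 3 and control replicate 4. This alternative was chosen after the data had been seen.

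Between exposures, no gene changed in T2R1 against T1R1, where 0% of all features passed in limma. At an unadjusted p under 0.05 Pecam1 alone of the 10 genes differed, and it was lower, against 2.34% of all features lower and 7.83% in either direction. T3R1 was below T1R1 for all 10 genes (median -0.23), with Robo4 and Pecam1 passing, against 15.3% of all features that fell. The arrays did not overlap for 5 genes, Cdh5, Pecam1, Esam, Erg and Robo4, against 26.2% of all features. T3R1 was below T2R1 for 7 of the 10 (median -0.10), with Sox17 and Robo4 passing, against 20.4%. Erg and Robo4 did not overlap there, against 38% of all features. The second probe of Erg overlapped both against T1R1 and against T2R1. The 20% of the 10 genes that fell in each of these comparisons is near the share of all features. Scaling by the array median turned the median of the 10 genes to 0.17 against T1R1 and to 0.26 against T2R1, and 1 gene, Sox18, then passed as higher in T3R1 than in T2R1. With that scaling the median of all features was itself 0.33 and 0.26. The moderated F test over the 4 groups called Robo4, Sox18 and Egfl7, against 26.9% of all features.

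Other endothelial lists gave few calls in T3R1 against control, where 0.19% of all features fell and 0.504% rose with all controls. Of 21 tested junction partners, the scaffold and adhesion proteins of the same junctions, 1 fell and none rose, with a median of -0.06. That gene was Ptprb, the phosphatase VE-PTP that binds VE-cadherin, which fell by 0.56 in T3R1 (SE 0.11, adjusted p = 0.0338) and by 0.45 in T2R1 (adjusted p = 0.00922). Tjp1, the scaffold ZO-1, had differences of -0.27, -0.28 and -0.35 in T1R1, T2R1 and T3R1 with no call. Nectin2, a nectin adhesion molecule, had 0.16, 0.27 and -0.06, again with no call. With control replicate 1 left out, 5 of the 21 fell and 1 rose in T3R1, which is near the 19.2% of all features that fell and the 10.2% that rose in that fit. Among those that fell were Ptprb, by 0.68 (adjusted p = 0.000113), and Tjp1, by 0.39 (adjusted p = 0.0132).

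Of 21 tested endothelial transcription factors none changed in T3R1 (median -0.25) and 5 fell in T2R1 (median -0.17), against 3.58% of all features. Sox7, the remaining SOXF member, fell in T2R1 by 0.49 (adjusted p = 0.0220) and had -0.55 in T3R1 (adjusted p = 0.0612). Foxc1, a forkhead factor, fell by 0.54 in T1R1 and 0.57 in T2R1 (adjusted p = 0.0187 and 0.00820). Lyl1, a basic helix-loop-helix factor of blood and vessel cells, fell in T2R1 by 0.47 (adjusted p = 0.00473) and had 0.06 in T3R1. Without control replicate 1, 8 of the 21 factors fell in T2R1 and 10 in T3R1, against 9.38% and 19.2% of all features. In T3R1 Sox7 was then at -0.66 (adjusted p = 0.00254), Foxc1 at -0.42 (adjusted p = 0.0270) and Lyl1 at 0.07 with no call.

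None of the 25 general endothelial genes changed in T3R1 with all controls, although 20 were below 0 and the median was -0.26. Myct1, Adgrf5 and Icam2, the last an adhesion molecule for leukocytes, had -0.36, -0.63 and -0.39 (adjusted p = 0.124, 0.0612 and 0.0937). With the other 3 controls alone, 14 of the 25 fell and 1 rose, against 19.2% of all features that fell and 10.2% that rose. Adgrf5 was then at -0.80 (adjusted p = 0.000689), Myct1 at -0.44 (0.0182) and Icam2 at -0.48 (0.00735). Of 20 genes of capillary, arterial, venous and endocardial cells none changed in T3R1 (median -0.35). Without control replicate 1, 10 of the 20 fell and 1 rose, against the same shares of all features. With all controls Car4, the carbonic anhydrase of capillary surfaces, had -0.35 in T3R1 (adjusted p = 0.157). In the same fit Sema3g, an arterial semaphorin, had -0.42, and Cytl1 had -0.88 (adjusted p = 0.107 and 0.0612). With the other 3 controls the same 3 genes fell, by 0.50, 0.58 and 1.07 (adjusted p = 0.00210, 0.00106 and 0.00142).

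The lymphatic and barrier lists were small. Of 5 tested lymphatic genes none changed in T3R1 (median -0.23), with Prox1, the lymphatic master factor, which heart muscle also expresses, at -0.62, Lyve1, a hyaluronan receptor, at -0.33 and Mmrn1 at -0.23. Prox1 fell, once control replicate 1 was left out, in T3R1 by 0.93 (adjusted p = 0.000370), and also in T1R1 and T2R1, while Pdpn, podoplanin, rose in T3R1. Of 5 tested partners of the blood-brain barrier none changed (median 0.10). Abcb1a, the drug efflux pump P-glycoprotein, had -0.69 (adjusted p = 0.0631), Mfsd2a, a lipid transporter, had 0.51 and Lsr, a tricellular junction protein, had 0.10. With the other 3 controls Abcb1a fell by 0.85 (adjusted p = 0.00167), and the other 4 did not pass.

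Markers of other heart cells differed as well, the fibroblast and leukocyte lists opposite to the endothelial genes and the cardiomyocyte list in the same direction. On a scale centred over the 16 arrays, the mean of the 10 genes was 0.24 to 0.33 in control replicates 2 to 4, -0.13 in control replicate 1 and -0.23 to -0.13 in T3R1. The 7 fibroblast genes were at -0.47 to -0.42, 0.50 and 0.58 to 0.78 in the same 3 sets, and in T3R1 against control 2 of the 7 rose, the collagens Col1a1 and Col3a1. The 7 leukocyte genes were at -0.67 to -0.39, 0.77 and 0.27 to 0.53. The 8 cardiomyocyte genes were at 0.14 to 0.30, -0.57 and -0.43 to 0.04. No leukocyte or cardiomyocyte gene passed in T3R1 against control, where the medians of these lists were 0.75 and -0.22. Of 9 pericyte and smooth muscle genes 1 rose, Cspg4 (median -0.04). With all controls 0.504% of all features rose and 0.19% fell in T3R1 against control. Without control replicate 1, when 6 of the 10 endothelial genes fell in T3R1, 5 of the 7 leukocyte genes rose (median 1.06), 4 of the 7 fibroblast genes rose (median 0.49) and 4 of the 8 cardiomyocyte genes fell (median -0.47). Of the pericyte and smooth muscle genes 3 then fell and 2 rose, and 1 of 6 nerve and Schwann cell genes fell. Over all features 10.2% rose and 19.2% fell in that fit.

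In the hearts of the second slide other lists moved. With all controls 4 of the 6 nerve and Schwann cell genes fell in T1R1 and 3 in T2R1, and without control replicate 1 the counts were again 4 and 3. Adipocyte genes fell in T1R1 for 3 of 8 (median -2.51), and none did without control replicate 1 (median -2.13), when 1 rose in T2R1. In T2R1 1 of 7 platelet genes rose (median 0.67), a call that was lost without that control. In both groups, with all controls, 1 of 7 leukocyte genes rose, Itgam, 1 of 6 liver genes rose, Fga (medians 1.12 and 0.90), and 1 of 9 pericyte and smooth muscle genes fell, Acta2. Itgam and Fga also rose in both groups without control replicate 1. In that fit 3 and 2 leukocyte genes rose in T1R1 and T2R1, 2 fibroblast genes rose in T2R1, Acta2 fell in T1R1, and Abcc9 and Kcnj8 of the same list fell in T2R1. No gene of the mesothelial and thymus lists passed in any exposure against control, with or without that array. Over all features, with all controls, 7.75% rose and 2.1% fell in T1R1, and 14.8% rose and 3.58% fell in T2R1. Without control replicate 1, 9.66% and 9.38% of all features fell in T1R1 and T2R1. The shares of all features that rose in that fit are not given here, so the rises listed for it have no background. Genes of these lists were named after their values were seen. The part of these cell types in the endothelial differences was not tested.

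**Figure D3:**
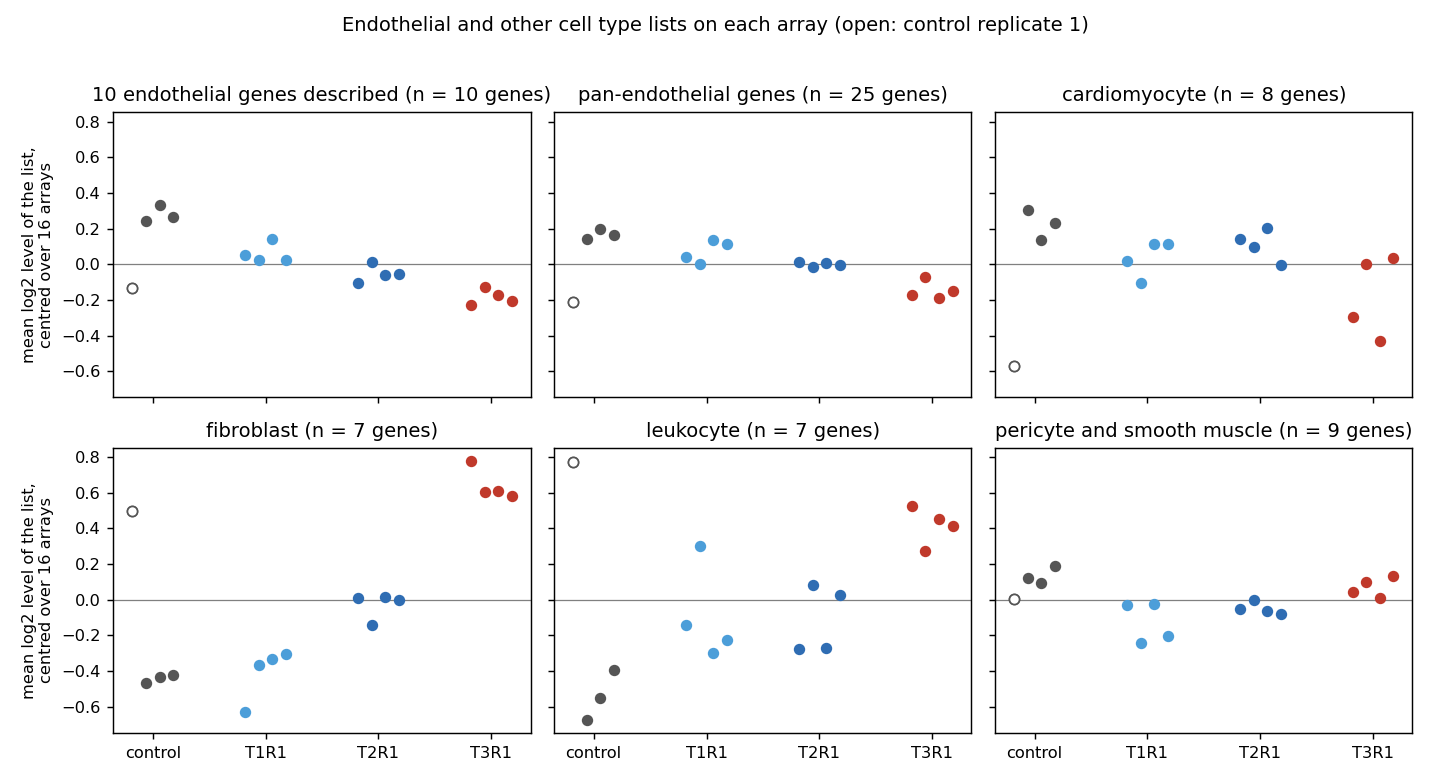
Mean level of 6 gene lists on each array (y axis, log2, centred over the 16 arrays), with control replicate 1 as an open circle. The endothelial lists are lower and the fibroblast and leukocyte lists higher in T3R1 and in control replicate 1 than in control replicates 2 to 4.

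Over the 16 arrays the 10 genes moved together only in part. Pearson's r had a median of 0.476 over their 45 pairs, from -0.18 for Cldn5 with Sox17 to 0.885 for Egfl7 with Erg, and it was above 0 in 42 pairs. After the group means were subtracted the median was 0.356, and 37 pairs were above 0. Robo4 followed the mean of the other 9 genes most closely (r = 0.884) and Sox17 least (0.352). These are descriptions, and the arrays share slide and scaling. The 5 other genes most like the mean of the 10 standardized genes over 16 arrays were Dnajc21 (r = 0.945, Spearman's rho = 0.947), Arap3 (0.937, 0.915), Dennd3 (0.937, 0.929), Eif4a2 (0.932, 0.941) and Flt1 (0.931, 0.926). Flt1 is a VEGF receptor of endothelial cells, and the others were not on any of the lists.

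**Figure D4:**
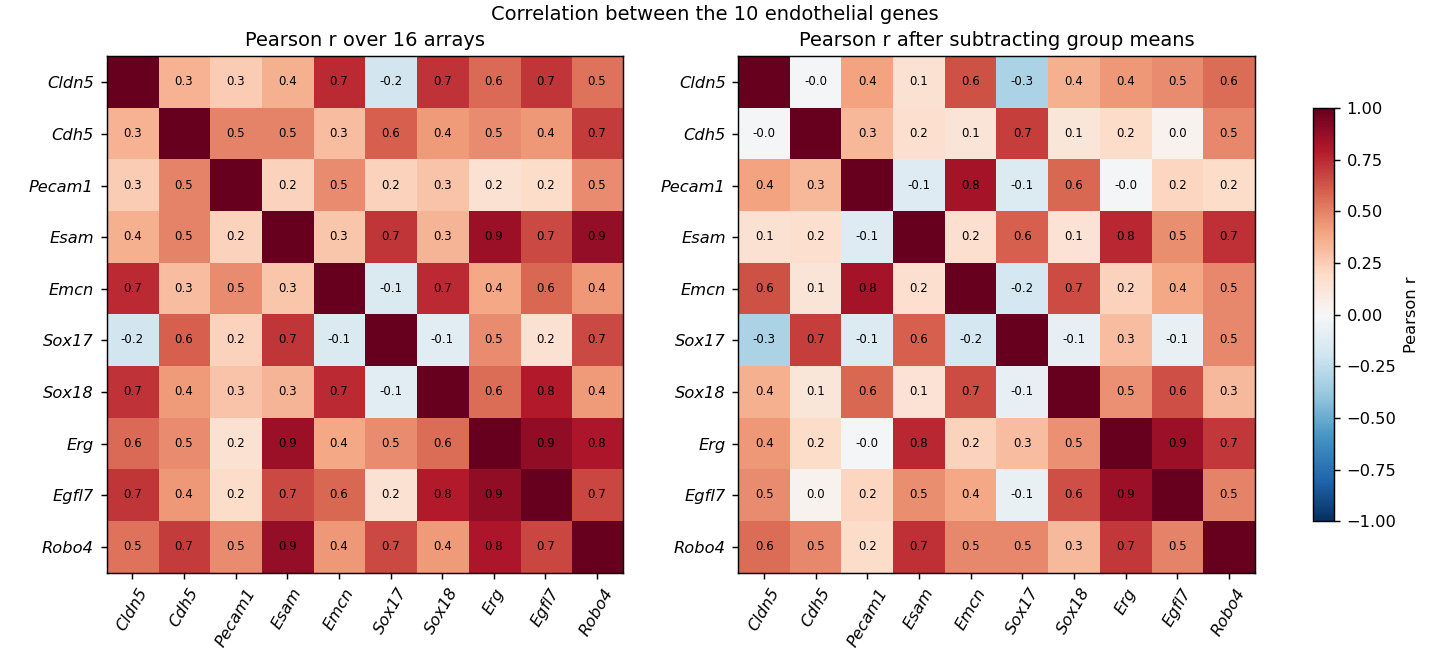
Pearson's r between each pair of the 10 genes over 16 arrays (left) and after subtracting group means (right), on a colour scale from -1 to 1. Egfl7, Erg, Esam and Robo4 form the reddest block, and Sox17 has values near or below 0 with Cldn5, Emcn and Sox18.

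Promoter sequences were read for every one of the 10 genes with a window at hand, since ETS and SOXF factors are themselves among them. RefSeq windows of GRCm38.p6, from 250 bases before to 50 after a start, were at hand for 5 of the 10 genes (Cldn5, Egfl7, Emcn, Erg and Robo4), in 9 windows, because Egfl7 and Erg had 3 starts each. They are in another build than the probes. The 250 bases before the start are shown for Robo4, with matches to both motifs, for Emcn, with matches to both, and for Cldn5, with none. Capitals mark GGAAG, a core of ETS sites, or ACAAT, a core of SOX sites, on either strand, where CTTCC and ATTGT are their reverse complements.
Robo4 (chr9:37401722-37401971, plus strand): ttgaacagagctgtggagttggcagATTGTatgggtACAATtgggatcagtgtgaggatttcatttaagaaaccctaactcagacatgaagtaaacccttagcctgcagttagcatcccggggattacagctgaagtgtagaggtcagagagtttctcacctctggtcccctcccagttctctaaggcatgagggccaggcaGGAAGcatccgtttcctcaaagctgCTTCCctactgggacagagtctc
Emcn (chr3:137340828-137341077, plus strand): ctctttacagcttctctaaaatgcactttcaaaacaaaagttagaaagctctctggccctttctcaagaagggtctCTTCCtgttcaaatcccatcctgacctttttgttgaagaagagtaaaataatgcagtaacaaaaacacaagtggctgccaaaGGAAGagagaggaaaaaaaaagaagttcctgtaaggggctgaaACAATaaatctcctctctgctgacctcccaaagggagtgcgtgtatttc
Cldn5 (chr16:18776597-18776846, plus strand): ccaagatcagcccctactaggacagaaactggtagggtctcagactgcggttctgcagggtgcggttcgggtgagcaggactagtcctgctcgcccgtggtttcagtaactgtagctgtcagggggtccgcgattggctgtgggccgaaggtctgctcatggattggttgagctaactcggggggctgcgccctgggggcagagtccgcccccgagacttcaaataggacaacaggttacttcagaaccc

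Over the whole windows GGAAG was found in 6 of the 9, covering 4 of the 5 genes, and in 71.41% of all 32851 promoter windows. ACAAT was found in 3 of the 9, covering 3 of the 5 genes, and in 31.02% of all windows. Of the 3 ETS matches in the whole Robo4 window, 2 lay 48 and 23 bases before the start. The SOX matches in Robo4 lay 225 and 214 bases before it. Such matches describe letters in these windows and are not sites of binding. Any link between these matches and the differences in level was not tested.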

How the data were processed

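RNA of 16 mouse hearts was read on 1-colour Agilent arrays. Per the file headers, the processed intensity of each spot was made with Feature Extraction 10.7.3.1, with background subtracted and spatial trend removed, and the mean spot intensity and local background were left uncorrected; the 0 or 1 flags of the deposited files mark outlier, saturated and well-above-background spots, and probe positions are in mm9. The authors deposited log2 values as well, quantile-normalized between arrays, with ranks equal to those of the mean spot intensity and a median of 6.10; how they were made is not stated in the labels or headers used, and they serve as an alternative.

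From the processed intensity, outlier spots were left out, log2 values were taken, the 75th percentile of each array was subtracted, and replicate spots were averaged. Of 55681 probes, 31390 stayed in, those well above background on every array of 1 or more groups, and each gene was represented by its probe of highest mean. Gene names were updated through RefSeq accessions, symbols and synonyms. The 4 groups were modelled with limma 3.58.1 under R 4.3.3, two-sided, adjusted by Benjamini-Hochberg over 22631 features, with 12 residual degrees of freedom, and tested on simulated data. The number of arrays limits the precision.

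The 10 genes, the lists and the tests were chosen with earlier results of these data known. All 10 genes and both probes of a gene are named, and from each endothelial list the 3 genes with the smallest p of the moderated F test. The labels state no pairing, and replicate numbers were not used as pairs in the main fit. Alternatives covered background correction (normexp, offset 50), scaling, the authors' values, filters, probes, groups in the fit, prior, replicate block, threshold (0.1) and leaving out each array.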

Additional observations from a re-analysis of the deposited data

Results flagged for a closer look

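Within groups of 4 arrays, 3 values lay far from the other 3 in their group, by the gap to the nearest divided by the range. Cdh5 was 2.66 in T3R1 replicate 4, below 2.90 to 2.91 in the others. Erg was -2.12 in T3R1 replicate 1, below -1.88 to -1.83 in the others. Sox18 was 2.18 in T2R1 replicate 4, above 1.87 to 1.91 in the others. Such a gap arises by chance in about 1 in 20 groups, and 48 combinations of probe and group were examined.

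In 4 tests between exposed groups the levels differed: Pecam1 (-0.30) and Robo4 (-0.51) in T3R1 against T1R1, and Robo4 (-0.37) and Sox17 (-0.54) in T3R1 against T2R1. With scaling by the array median none of the 4 passed. All 4 compare arrays on different slides, and slide and exposure cannot be told apart.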

How the results depend on the processing

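The counts of the 10 genes called depended most on the scaling and on control replicate 1. Scaling by the array median gave 8 calls in T1R1 and 8 in T2R1 against control, 0 in T3R1 against T1R1, 1 in T3R1 against T2R1 and 8 over all 4 groups; it shifted the median difference of all features by -0.43 in T1R1 and -0.39 in T2R1, to -0.44 and -0.37. In T3R1 against control 2 genes passed with normexp, the authors' values, the filter on all 16 arrays and the robust prior, and 4 at the looser threshold, which also gave 4 in T3R1 against T1R1 and 6 over all groups. Of all features 300, 363, 535 and 480 passed in the first 4 of these settings. At the looser threshold 1518, 7093 and 8636 features passed. Over all groups the authors' values gave 6 and the robust prior 5, beside 6408 and 6360 of all features. With no filter on dim probes 1 gene passed in T3R1 against T1R1 and 1 against T2R1, beside 4892 and 5749 of all features. Fits of 2 groups alone gave 1 in T2R1 against control and 1 in T3R1 against T1R1, beside 3762 and 4772. Quantile normalization without control replicate 1, added after seeing the data, gave 3, 6, 4 and 8 in T1R1 and T3R1 against control, T3R1 against T1R1 and all groups. Of all features 1933, 5770, 6277 and 9370 passed there.

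Leaving out each array in turn gave 0 to 4 calls in T1R1, 1 to 5 in T2R1 and 0 to 6 in T3R1 against control, 1 to 5 in T3R1 against T1R1, 0 to 3 in T3R1 against T2R1 and 1 to 7 over all groups, the highest each time without control replicate 1. Without that array 9.66%, 9.38% and 19.2% of all features fell in T1R1, T2R1 and T3R1 against control. Shares of all features for the other comparisons without that array are not given here, so their highest counts have no background.

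With the replicate number as a block, 0, 2 and 0 genes passed in T1R1, T2R1 and T3R1 against control, 0 in T2R1 against T1R1, 2 and 2 in T3R1 against T1R1 and T2R1, and 4 over all groups. Of all features 2255, 4093, 42, 0, 5060, 5941 and 5684 passed, in the same order. In T3R1 against T1R1 the block ended the call of Pecam1 (adjusted p = 0.0588), and Sox17 passed (0.0324). After group means were subtracted, same-numbered arrays had a median correlation of 0.019 (-0.32 to 0.39 over 24 pairs), and 5 of 16 arrays correlated best with their own number. With 24 pairs these values cannot exclude a pairing, and the labels state none. A slide block was not run, since each group lies on 1 slide.

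Of 53 uncalled differences 23 changed sign under at least 1 alternative, and 1 called difference did, Pecam1 in T3R1 against T1R1 (0.10 with the array median). With that scaling the other turned values were, in T3R1 against T1R1, 0.18 for Cdh5, 0.25 for Cldn5, 0.22 for Egfl7, 0.38 for Emcn, 0.11 for Erg, 0.16 for Esam and 0.32 for Sox18. In T3R1 against T2R1 they were 0.28 for Cdh5, 0.24 for Egfl7, 0.073 for Erg, 0.14 for Esam and 0.27 for Pecam1. Erg and Esam turned to 0.040 and 0.023 in T2R1 against T1R1, Pecam1 to -0.21 and -0.38 and Sox17 to -0.33 and -0.18 in T1R1 and T2R1 against control. Cdh5, Esam and Robo4 in T1R1 against control turned to 0.074, 0.032 and 0.075 with quantile normalization and to 0.065, 0.043 and 0.032 with the authors' values. Emcn in T3R1 against T1R1 turned to 0.11 with normexp and 0.058 with the authors' values. The second probes turned Erg in T2R1 against T1R1 to 0.090 and Sox17 in T1R1 against control to -0.071. Quantile normalization without control replicate 1 turned Cdh5 in T1R1 to 0.057 and Pecam1 in T2R1 to -0.0024. The cause was not tested.

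Leaving out 1 array gave, in T1R1 against control, -0.076 to 0.071 for Cdh5, -0.13 to 0.052 for Robo4 and -0.017 to 0.17 for Sox17, and -0.048 to 0.064 for Pecam1 in T2R1 against control. It gave -0.16 to 0.0023 for Emcn, -0.054 to 0.057 for Erg and -0.087 to 0.021 for Esam in T2R1 against T1R1, and -0.11 to 0.040 and -0.025 to 0.12 for Emcn in T3R1 against T1R1 and T2R1. Counts over all features ranged from 2 to 5770 in T3R1 against control and from 974 to 10677 in T1R1 against control over the alternatives other than leaving out single arrays.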
